A study of Mus musculus with 4 samples.

Results

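*Hoxc10*-positive pre-somitic mesoderm comprised 624 of the 20198 cells that passed the filters. Its members were chosen by the unique molecular identifiers (UMIs, each marking 1 captured transcript) of 9 genes. A pre-somitic cell had at least 3 UMIs of *Tbx6*, UMIs of at least 2 of *Dll1*, *Dll3*, *Msgn1* and *Rspo3*, and at most 2 UMIs of *Mesp2* and *Ripply2* together. A member had, in addition, at least 2 UMIs of *Hoxc10* and *Hoxd11* together. Cells with fewer than 3000 detected genes, fewer than 7500 UMIs or over 7% mitochondrial UMIs had been removed. Since these values chose the members, levels of the 9 genes are given as a description and none of the 9 was tested.

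The cells came from the caudal portion of untreated E8.5 mouse embryos on a C57BL/6 background, from an intercross of *Grhl3*+/- parents. One pool held cells of 5 wild-type (WT) embryos and the other cells of 3 embryos without functional *Grhl3* (*Grhl3*-null), a transcription factor of surface ectoderm. Droplet libraries with a 3′ kit were made in 2 reactions per pool, so there were 2 WT and 2 *Grhl3*-null libraries, called replicates here. The filters kept 5459 and 5116 WT cells with 226723903 and 220747840 UMIs, and 4842 and 4781 *Grhl3*-null cells with 226059247 and 209833527 UMIs. A WT cell held a median of 33391 UMIs in replicate 1 and 34572.5 in replicate 2. For *Grhl3*-null cells this median was 38070 and 35514. Any 2 libraries shared 5 to 7 cell barcodes after filtering. Replicates were reactions on 1 pool, so every p-value given here measures only how reactions vary, and embryos add nothing to it. Cells carry no label of their embryo, so differences between embryos and differences between cells of 1 embryo cannot be told apart.

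Pre-somitic mesoderm is the unsegmented tissue at the caudal end of the embryo that is cut into somites in a rhythm set by the Notch, Wnt and Fgf pathways, and Tbx6 is a transcription factor that defines it. It is refilled from the tail bud, where neuromesodermal progenitors (NMPs) express *T* and *Sox2* together. Hox genes lie in 4 clusters and are switched on in the order of their position, so that cells formed later and further caudal express genes of higher number. Genes of group 10 and above mark the passage from trunk to tail, a passage for which the ligand Gdf11 is needed and which the orphan nuclear receptor Nr6a1 and the RNA-binding proteins Lin28a and Lin28b counteract.

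Members were found nearly only in the WT libraries. They numbered 309 of 1043 pre-somitic cells (29.6%, 95% Clopper-Pearson interval 26.9 to 32.5) in WT replicate 1 and 294 of 1006 (29.2%, 26.4 to 32.1) in WT replicate 2. In the *Grhl3*-null libraries they numbered 15 of 557 (2.69%, 1.51 to 4.40) and 6 of 488 (1.23%, 0.453 to 2.66). The intervals cover counting error only. The WT shares differed by less than their intervals, and both null shares lay below them. After every pre-somitic cell was thinned to 7500 UMIs, with at least 1 UMI of *Tbx6* required for a cell and at least 1 UMI of *Hoxc10* or *Hoxd11* for a positive one, the shares were 26.1% and 26.5% in WT and 1.57% and 1.81% in *Grhl3*-null. Blood cells, which should lack both Hox genes, gave the background of free RNA in the droplets. Among cells with at least 100 haemoglobin UMIs and at least 3 UMIs of *Gata1* and *Klf1* together, 3 of 68 and 1 of 49 WT cells (4.41% and 2.04%) and 0 of 60 and 2 of 67 *Grhl3*-null cells had at least 2 UMIs of the Hox genes (the latter 2.99%). A count of 0 of 60 allows a share of up to 5.00% if 3 counts are taken as the limit, and of up to 5.96% by the Clopper-Pearson interval. Somite cells, with at least 3 UMIs each of *Meox1* and *Tcf15* and none of *Tbx6*, were positive in 7 of 395 and 1 of 408 cases in *Grhl3*-null (1.77%, 0.715 to 3.62, and 0.245%, 0.0062 to 1.36) and in 25 of 357 and 16 of 300 in WT, at median depths of 39518 and 36009 UMIs in *Grhl3*-null. The median depth of the blood cells was 40083 and 36659 UMIs for WT, and 47071 and 44012 for *Grhl3*-null. The shares of null pre-somitic cells were no higher than the few blood cells allow but above those of null somite cells, with overlapping intervals, whereas the WT shares were above both. The 21 null members also held UMIs of posterior Hox genes outside the rule. *Hoxa10* gave 29 UMIs in 9 of the 21 cells, or 14.8 counts per 1000000 UMIs (CPM), against 1.16 and 0.958 CPM in null pre-somitic cells without Hox UMIs. *Hoxa11* gave 3 UMIs in 2 of the 21 cells and none in those other null cells. The part of free RNA in the null shares was not tested.

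**Figure D1:**
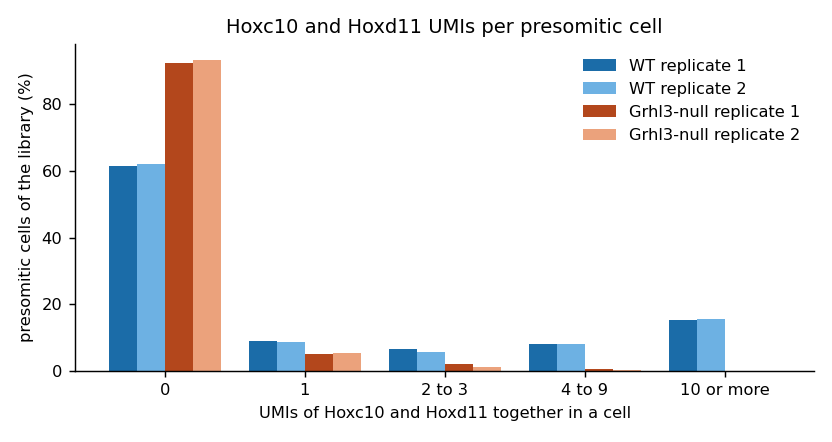
Share of the pre-somitic cells of each library (%) by the number of UMIs of *Hoxc10* and *Hoxd11* together in a cell, as bars for the 2 WT and 2 *Grhl3*-null libraries. The class with 10 or more UMIs held 158 and 155 WT cells and no *Grhl3*-null cell.

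In most members the choosing UMIs were well above the threshold. The median was 10 UMIs per member in both WT replicates and the highest values were 75 and 88 UMIs. With 10 or more UMIs there were 158 and 155 WT pre-somitic cells and no *Grhl3*-null cell, where the highest value was 8 in both libraries. Just inside the threshold, 42 and 33 WT members had exactly 2 UMIs. Just outside it, 93 and 88 WT cells had 1 UMI, and 641 and 624 WT cells had none. *Hoxc10* was detected in 309 of 309 and 293 of 294 WT members, whereas *Hoxd11* was detected in 116 and 111 of them. Membership was thus set almost entirely by *Hoxc10* (ENSMUSG00000022484), which lies on the plus strand of chromosome 15 of mm10 from 102966796 to 102971893. *Hoxd11* (ENSMUSG00000042499) lies on the plus strand of chromosome 2 from 74679557 to 74687016. The 21 *Grhl3*-null members were deep cells, with median depths of 86923 and 82919.5 UMIs against 44969.5 and 45689.5 UMIs in null pre-somitic cells without the Hox UMIs. In WT, members had median depths of 32127 and 33923 UMIs, below the 36455 and 36814 UMIs of cells without the Hox UMIs. Depth therefore ran in opposite directions in the genotypes. The null members entered no test.

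The sexes were unequally represented among the members. Cells with 3 or more UMIs of *Xist* and no more than 1 of 4 Y-linked genes were called female, and cells with 2 or more Y-linked UMIs and no more than 2 of *Xist* were called male. In WT replicate 1, 266 members were called female, 9 male and 34 neither. In WT replicate 2, 257 were called female, 9 male and 28 neither. Of the WT pre-somitic cells without Hox UMIs, by contrast, 341 were female and 198 male in replicate 1, and 339 were female and 206 male in replicate 2. Members made up 40.3% (36.5 to 44.2) and 39.6% (35.8 to 43.5) of female but 3.93% (1.81 to 7.33) and 3.83% (1.77 to 7.15) of male WT pre-somitic cells. Both *Xist* and Y-linked UMIs above these limits were found in 25 and 26 members (8.09% and 8.84%) and in 60 and 51 cells without Hox UMIs (9.36% and 8.17%). Among all filtered WT cells the share was lower, at 5.00% and 5.14%. Given 5 embryos in the pool, sex and embryo cannot be told apart, and the share of each embryo among the members is not known. Each gene comparison was therefore repeated in female cells alone.

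**Figure D2:**
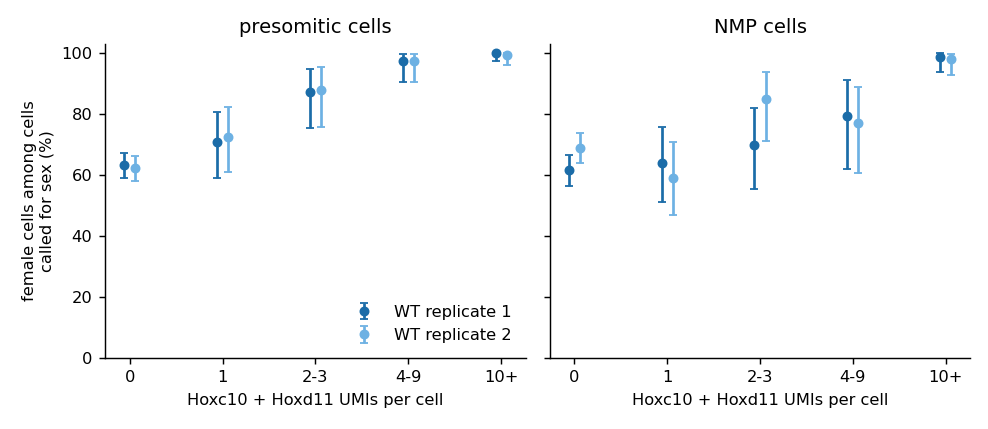
Female cells among the cells called for sex (%, y axis) by the number of *Hoxc10* and *Hoxd11* UMIs in a cell (x axis), for pre-somitic cells and for NMP cells of the 2 WT replicates, with 95% Clopper-Pearson intervals. Among pre-somitic cells the share was 63.3% and 62.2% at 0 UMIs and 100.0% and 99.3% at 10 or more.

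Genes were compared between the members and the pre-somitic cells of the same WT libraries without a UMI of *Hoxc10* or *Hoxd11*, to ask what else distinguishes pre-somitic cells that express posterior Hox genes. UMIs were summed per class and library, and levels are given in CPM, counts per 1000000, taken over all UMIs of the class in a library. Calls needed both an adjusted p (Benjamini-Hochberg, quasi-likelihood test of edgeR) under 0.05 and a change by 1 or more on the log2 scale. Of 13686 genes tested, 429 were called (3.13%), of which 273 rose (1.99%) and 156 fell (1.14%) in the members. In female cells alone, 453 of 11999 genes were called (3.78%), 255 higher (2.13%) and 198 lower (1.65%). Of the 429 genes, 336 were tested in female cells, and 297 of them were called there as well. All 336 kept their sign. Leaving out WT replicate 1 or 2 left 281 or 262 calls, of which 210 and 196 were among the 429. Most called genes were low, since 63 of the 429 had a mean of at least 10 CPM over the 4 WT sums, 49 higher and 14 lower.

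The label was checked against its markers. *Tbx6* and *Dll3* are genes of the rule, so their levels are a description. *Tbx6* gave a median of 5 UMIs per member in both replicates, against 4 and 5 UMIs in cells without Hox UMIs. *Dll3*, a Notch ligand of the pre-somitic mesoderm, was detected in 97.4% and 98.0% of members and in 98.3% and 98.1% of the other cells. *Btg2* and *Arl4d* were not used by the rule. *Arl4d* (ENSMUSG00000034936, chromosome 11 of mm10 from 101665541 to 101667832, plus strand), a small GTPase, was at 184 and 166 CPM in members against 52.1 and 56.1 CPM in the other WT cells. The groups did not overlap, and *Arl4d* rose by 1.70 ± 0.06 on the log2 scale (SE; adjusted p = 4e-10, edgeR). *Btg2* (ENSMUSG00000020423, chromosome 1 from 134075170 to 134079120, minus strand), an antiproliferative gene induced by p53, was at 188 and 198 CPM against 70.0 and 74.1 CPM. Its groups did not overlap either, and it rose by 1.43 ± 0.05 (adjusted p = 3.8e-10, edgeR). *Btg2* and *Arl4d* were thus present in members and in cells without Hox UMIs, and did not go against the label. Both are among the markers that the study chose for its pre-somitic cluster on these samples, so they are no independent check. Of 10 further genes of pre-somitic mesoderm that were tested, *Nrarp* rose and none fell, with a median log2 fold change of 0.12 against -0.0019 over all genes tested. Of 16 tested NMP genes, *Cdx1* fell and none rose, with a median of -0.051.

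Upstream sequence of a choosing gene, *Hoxd11*, and of *Hoxa10* and *Hoxd10* is shown because these genes were high in the same cells. RefSeq starts of build GRCm38.p6 (the assembly that mm10 names) were used, on the strand of the gene, and 7 of the 12 listed Hox genes of groups 10 to 13 had an entry. Capitals mark TTTATG on either strand (CATAAA when read backwards), the core letters of sites preferred by Cdx factors, regulators of Hox genes in the caudal embryo. Of the 9 starts of these 7 genes, 1 held it within the 250 bases before the start, that of *Hoxd11*, compared with 10.8% of all 32851 promoters in the table. The first sequence runs from 124 to 45 bases before the start at chr2:74679434-74679513. The other 2 are the last 80 bases before the start at chr6:52240855-52240934, minus strand, and chr2:74691811-74691890, plus strand. A match is a description and not a site.
Hoxd11: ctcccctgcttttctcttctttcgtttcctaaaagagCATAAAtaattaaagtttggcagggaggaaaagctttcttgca
Hoxa10: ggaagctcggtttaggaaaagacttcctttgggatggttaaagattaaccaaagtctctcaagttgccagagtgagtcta
Hoxd10: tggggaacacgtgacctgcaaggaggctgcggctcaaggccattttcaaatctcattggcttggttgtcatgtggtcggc

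*Hoxa10* (ENSMUSG00000000938, chromosome 6 of mm10 from 52231197 to 52240854, minus strand) was at 67.9 and 69.4 CPM in members, at 1.85 and 1.70 CPM in the other WT pre-somitic cells and at 1.16 and 0.958 CPM in *Grhl3*-null pre-somitic cells without Hox UMIs. The WT groups were far apart, and *Hoxa10* rose by 5.27 ± 0.08 (SE; adjusted p = 2.4e-13, edgeR). *Hoxd10* was at 17.8 and 19.4 CPM against 0.418 and 0.289 CPM. *Hoxa11* gave 61 and 78 UMIs in members against 3 and 2 UMIs in the other cells. *Hoxd13* gave 16 and 16 UMIs against 7 and 8, and *Hoxc11* 13 and 17 UMIs against 1 and 0. These 4 genes passed the low-count filter only through the member sums and had to differ, so they are given as a description with no test. *Hoxc12* and *Hoxd12* had no UMI in members.

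Across the 39 Hox genes listed, 31 were tested, 9 rose and none fell, with a median log2 fold change of 0.22 against -0.0019 over all genes tested. By paralogue group, 3 of 4 tested genes of group 9 rose, 1 of 11 of groups 5 to 8 and 0 of 11 of groups 1 to 4. The other 5 that rose were those of groups 10 to 13 given above, out of 12 listed. Since 4 of these had to differ, their count is no result. In group 9, *Hoxc9* was at 198 and 194 CPM against 64.8 and 68.7 CPM (log2 fold change 1.56 ± 0.04, adjusted p = 1.8e-10, edgeR), and *Hoxa9* and *Hoxd9* both had a log2 fold change of 1.07. *Hoxb9*, whose cluster lacks genes of groups 10 to 12, was lower in members at 182 and 200 CPM against 267 and 279 CPM, a log2 fold change of -0.51 that was not called for its size. Anterior to group 9 the gene that rose was *Hoxc6*, at 170 and 165 CPM against 77.1 and 81.3 CPM. The summed level of groups 1 to 4 was 822 and 799.9 CPM in members against 865 and 877 CPM. That of groups 10 to 13, the choosing genes included, was 400.5 and 399.6 CPM against 2.72 and 2.53 CPM. *Hoxc10* and *Hoxd11* made up 307 and 301 CPM of the member sums and are 0 in the other cells by the rule. The sum of groups 1 to 4 was slightly lower in members. *Hoxd9* was called in female cells too, at 1.19, as were *Hoxa10* at 5.63 and *Hoxc9* at 1.59.

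**Figure D3:**
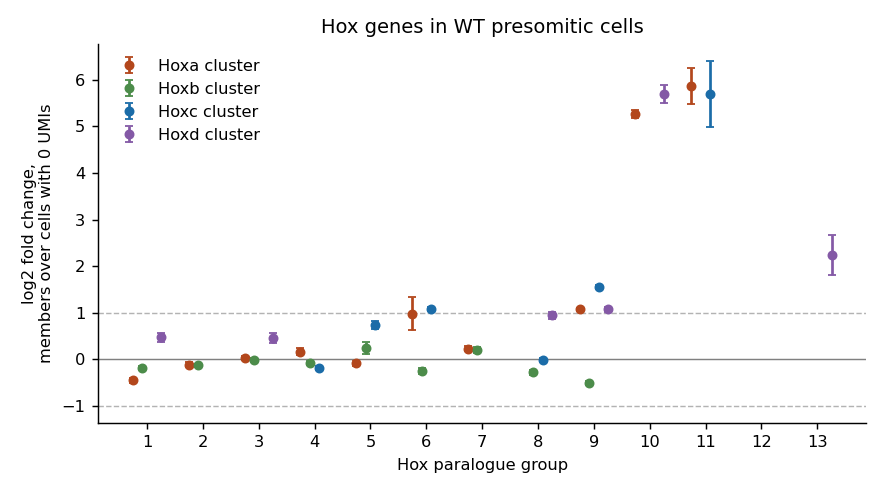
Log2 fold change of the 31 tested Hox genes in members over WT pre-somitic cells with 0 UMIs of *Hoxc10* and *Hoxd11* (y axis, with SE) by paralogue group (x axis), coloured by cluster. Dashed lines mark a log2 fold change of 1 and -1, and genes of groups 10 to 13 lie between 2.24 and 5.88, of which *Hoxc11* rests on 1 UMI in the cells without.

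Among the regulators of the passage from trunk to tail, *Nr6a1* and *Pou5f1* were lower in members. *Nr6a1* (ENSMUSG00000063972, chromosome 2 of mm10 from 38723370 to 38927688, minus strand) was at 71.9 and 76.9 CPM in members against 202 and 216 CPM in other WT cells and 212 and 215 CPM in null cells. It fell by 1.48 on the log2 scale (SE 0.05, adjusted p = 3.4e-10, edgeR), and by 2.14 in female cells. *Pou5f1*, a pluripotency factor that persists in the early caudal embryo, was at 6.57 and 6.15 CPM against 16.4 and 17.4 CPM. It fell by 1.41 (SE 0.11, adjusted p = 1.1e-06, edgeR), and by 2.39 in female cells. In neither gene did the groups overlap. *Lin28b* was at 58.8 and 52.7 CPM against 71.4 and 76.4 CPM (log2 fold change -0.40, not called). *Gdf11* was at 68.8 and 61.8 CPM against 41.1 and 44.5 CPM (0.61, not called), and in female cells its log2 fold change was 0.91. Of 16 genes in the list, 15 were tested, 1 rose and 2 fell, with a median log2 fold change of 0.13. The 1 that rose, the limb gene *Tbx4*, rests on 5 and 7 UMIs against 1 and 4, passed the low-count filter only through the member sums, and was not called without either WT replicate, at 1.88 and 3.37.

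Levels of *Nr6a1* and *Hoxa10* moved step by step with the number of choosing UMIs. *Nr6a1* was at 202, 161, 112, 73.9 and 51.1 CPM in WT replicate 1 in cells with 0, 1, 2 to 3, 4 to 9 and 10 or more UMIs, and at 216, 175, 125, 79.0 and 57.6 CPM in replicate 2. *Hoxa10* took the opposite course, from 1.85 to 103 CPM in replicate 1 and from 1.70 to 97.8 CPM in replicate 2. At each step *Nr6a1* was lower and *Hoxa10* higher in both replicates. Cells with 1 UMI, left out of the comparison, thus lay between its groups for both genes. Other genes did not move at each step, and *Btg2* was highest at 4 to 9 UMIs, at 225 and 242 CPM, and at 205 and 185 CPM at 10 or more. The share of female cells was higher in each such class up to 100.0% and 99.3%. Median depth was 36455, 39657, 31803, 29007 and 33152 UMIs in replicate 1. In replicate 2 it was 36814, 36011, 33923, 28025 and 36926 UMIs. The part of sex in these steps was not tested.

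**Figure D4:**
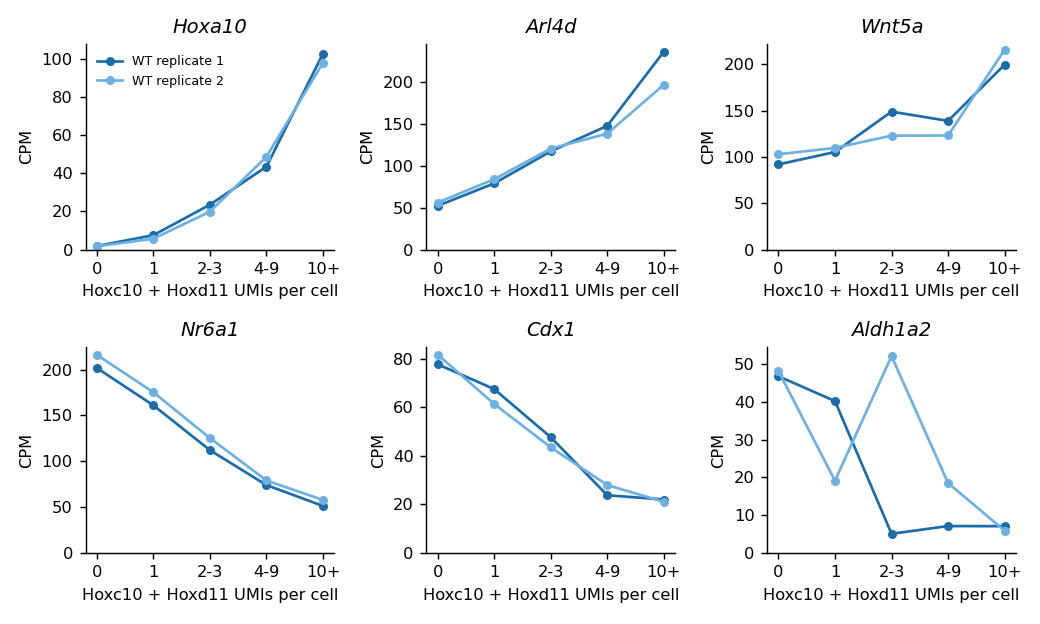
CPM of 6 genes (y axes, from 0) in WT pre-somitic cells by the number of *Hoxc10* and *Hoxd11* UMIs in a cell (x axes), each line 1 WT replicate. *Hoxa10* and *Arl4d* are higher and *Nr6a1* and *Cdx1* lower at each step in both replicates, while *Aldh1a2* reached 52.1 CPM at 2 to 3 UMIs in replicate 2.

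*Cdx1*, *Cdx2* and *Cdx4* encode caudal homeobox factors that act upstream of Hox genes, and of these *Cdx1* alone was called. It was at 28.6 and 27.4 CPM in members against 77.7 and 81.7 CPM, a fall of 1.50 on the log2 scale (SE 0.06, adjusted p = 2.5e-09, edgeR), and of 2.17 in female cells. *Cdx2* was at 230 and 214 CPM against 202 and 206 CPM and *Cdx4* at 309 and 276 CPM against 270 and 271 CPM. Their log2 fold changes were 0.13 and 0.12, and in cells of 25000 to 60000 UMIs both were just below 0. *T*, the T-box factor of the tail bud, was at 297 and 266 CPM against 235 and 235 CPM (log2 fold change 0.26, not called). At least 2 UMIs of *T* were found in 93.2% and 94.6% of members against 85.5% and 87.8% of cells without Hox UMIs, although members were shallower. In the list of Cdx and T-box genes, 9 were tested, 2 rose, *Tbx2*, at 16 and 10 UMIs against 5 and 10, and *Tbx4*, which had to differ as given above, and 1 fell. Without WT replicate 1 *Tbx2* was not called, at 1.10.

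Retinoic acid is made by Aldh1a2 in somites and removed by Cyp26a1 in the tail bud. *Aldh1a2* was at 6.57 and 18.6 CPM in members against 46.8 and 48.1 CPM, a fall of 1.90 (SE 0.22, adjusted p = 5.7e-05, edgeR). The member replicates differed by more than those of the other cells but did not reach them. *Cyp26a1* was at 189 and 145 CPM against 89.5 and 88.3 CPM (0.91, and 1.20 in female cells, where it was called). In this list of 17 genes, 16 were tested, none rose and 2 fell, *Aldh1a2* and the receptor gene *Rxrg*, with a median of -0.045. Without WT replicate 2 *Rxrg* was not called, at -1.53.

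Of 21 genes of segmentation and somite formation, 18 were tested, none rose, 8 fell (*Aldh1a2*, *Meox1*, *Tcf15*, *Meox2*, *Mesp1*, *Efnb2*, *Cer1* and *Uncx*) and 10 were not called. *Uncx* and *Cer1* passed the low-count filter only through the cells without Hox UMIs, so they had to differ and their falls are no result. The median log2 fold change was -0.99. *Pax3*, one of those not called, had a log2 fold change of 0.33. The rule capped *Mesp2* and *Ripply2* in both classes alike. *Meox1*, a homeobox gene of somites, was at 16.2 and 23.0 CPM against 53.6 and 49.5 CPM (log2 fold change -1.39 ± 0.11, adjusted p = 1.7e-06, edgeR). *Tcf15*, a bHLH factor of somites, was at 26.4 and 42.7 CPM against 76.0 and 79.2 CPM (-1.16 ± 0.13, adjusted p = 4.3e-05, edgeR). Both lay lower in every member sum than in any other sum. Without WT replicate 1 the fall of *Tcf15* was 0.89 and that of *Efnb2* was 0.97, under the limit on size, and *Meox2* was not called, at -0.46. Without replicate 2 *Cer1* was not called, at -1.61. Cells past the *Mesp2* and *Ripply2* limit, which are segmenting, were positive for the Hox genes in 5 of 50 and 5 of 45 cases in WT (10.0%, 3.33 to 21.8, and 11.1%, 3.71 to 24.1). In *Grhl3*-null they were positive in 0 of 36, which allows a share of up to 9.74% by the same interval, and in 3 of 28 (10.7%, 2.27 to 28.2), so that no difference between genotypes was detectable in these few cells.

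Of 23 Notch and clock genes listed, 21 were tested, 3 rose and none fell, with a median log2 fold change of 0.097. *Hes1*, a repressor induced by Notch, was at 102 and 90.3 CPM in members against 45.8 and 39.7 CPM (1.17 ± 0.07, adjusted p = 2.1e-07, edgeR). *Nrarp*, a feedback inhibitor of Notch that the study also lists for this cell type, was at 183 and 178 CPM against 88.8 and 88.6 CPM (1.03 ± 0.04, adjusted p = 1.4e-09, edgeR). *Hey2*, a further target, was at 12 and 11.4 CPM against 5.54 and 5.13 CPM (1.14 ± 0.12, adjusted p = 1.5e-05, edgeR). All 3 were without overlap between the groups. Other targets were not called. *Hey1* was at 25.9 and 24.6 CPM against 14.1 and 12.8 CPM (0.91), and *Hes5* was lower in members, at 30.2 and 25.0 CPM against 38.5 and 39.5 CPM (-0.49). *Lfng*, *Hes7* and *Snai1*, further genes of this list, were not called either. *Lfng* was at 23.0 and 25.4 CPM against 16.5 and 17.2 CPM (0.53), *Hes7* at 186 and 180 CPM against 156 and 149 CPM (0.27) and *Snai1* at 98.9 and 101 CPM against 53.4 and 57.2 CPM (0.86). *Notch1*, *Notch2* and *Notch3*, the receptors, were not called.

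In the Wnt list, 24 of 25 genes were tested, 1 rose and 2 fell, with a median of 0.047. *Nkd2*, a feedback inhibitor, was at 53.5 and 61.1 CPM against 19.8 and 23.4 CPM (1.42 ± 0.08, adjusted p = 7.9e-08, edgeR). *Sp5*, a transcription factor induced by Wnt, was at 79.3 and 65.3 CPM against 150 and 154 CPM (-1.07 ± 0.06, adjusted p = 1.4e-07, edgeR). The ligand gene *Wnt8a* fell from 1.85 and 3.11 CPM to 0.892 and 1.01 CPM, and without WT replicate 2 it was not called, at -1.04. Ligand genes at higher levels were not called, such as *Wnt5a* at 171 and 173 CPM against 91.9 and 103 CPM (0.83) and *Wnt3a* at 44.4 and 39.4 CPM against 35.2 and 33.5 CPM (0.29). Without WT replicate 2, *Sp5* fell by 0.91 and was not called.

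Fgf ligands differed from each other. *Fgf4* was at 4.62 and 3.03 CPM in members against 13.7 and 14.5 CPM and fell by 1.88 (SE 0.15, adjusted p = 2e-06, edgeR). *Fgf17* was at 164 and 146 CPM against 104 and 103 CPM (0.59) and *Fgf8* at 225 and 190 CPM against 258 and 249 CPM (-0.28), and neither was called. *Fgf18* was at 9.33 and 9.41 CPM against 18.9 and 16.6 CPM (-0.92, and -1.17 in female cells, where it was called). Of 22 listed Fgf genes, 20 were tested, none rose and 1 fell, with a median of -0.027. Receptors and the feedback genes of the Spry, Spred and Dusp families were not called.

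The 12 called genes with the largest increase and a mean of at least 10 CPM were *Hoxa10*, *Ebf2*, *2010111I01Rik*, *Arl4d*, *Sct*, *Mfap4*, *Hoxc9*, *Lpl*, *Btg2*, *Nkd2*, *Eci1* and *Efna1*. *Ebf2* (ENSMUSG00000022053, chromosome 14 of mm10 from 67233292 to 67430918, plus strand), a helix-loop-helix transcription factor, was at 17.2 and 18.1 CPM against 2.62 and 2.60 CPM (2.76 ± 0.15, adjusted p = 6.4e-08, edgeR). *Sct*, which encodes the hormone secretin, was at 62.5 and 57.1 CPM against 19.9 and 19.0 CPM (1.62 ± 0.11, adjusted p = 2.9e-07, edgeR). *Mfap4*, a protein of elastic microfibrils, was at 56.4 and 56.9 CPM against 19.2 and 19.0 CPM, and at 11.7 and 10.4 CPM in null cells. None of these 3 overlapped between the WT groups. *Lpl*, lipoprotein lipase, *Eci1*, a mitochondrial enzyme of fatty acid oxidation, and *Efna1*, an ephrin ligand, had log2 fold changes of 1.49, 1.42 and 1.39. In female cells all 12 were called, between 1.36 and 5.63.

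Genes with the largest decrease at a mean of at least 10 CPM were taken in the same way. *Prtg*, an adhesion receptor of the immunoglobulin family present in caudal tissues, was at 262 and 279 CPM against 604 and 613 CPM (-1.16 ± 0.04, adjusted p = 2.8e-10, edgeR). *Aldoc*, an aldolase of glycolysis, was at 9.73 and 10.6 CPM against 27.3 and 26.4 CPM (-1.40). *Ptprz1*, a receptor phosphatase, was at 9.0 and 9.5 CPM against 19.8 and 21.2 CPM (-1.14). The groups of all 3 were apart. Described above were *Aldh1a2*, *Cdx1*, *Nr6a1*, *Pou5f1*, *Meox1* and *Tcf15*. Also among them, *Eif2s3y* and *Ddx3y* lie on the Y chromosome. They were at 5.92 and 5.60 CPM against 18.9 and 17.9 CPM, and at 5.60 and 6.07 CPM against 16.3 and 16.8 CPM. Few members were called male, but that call itself uses Y-linked UMIs. The part of sex in the levels of these genes was not tested. *Xist* was at 654 and 677 CPM against 432 and 447 CPM.

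Of the 15 genes that the study lists as markers of its pre-somitic cluster, 5 were in the rule, and of the other 10, all tested, 9 rose and none fell, with a median of 1.29. Those 9 were *Arl4d*, *Btg2*, *Nkd2*, *Mfap4*, *Nrarp*, *6330403K07Rik*, *2610528A11Rik*, *Tpm1* and *Eogt*. *Tpm1*, a tropomyosin, was at 1133 and 1075 CPM against 465 and 481 CPM (1.23 ± 0.03). Of the 15 listed for caudal mesoderm, 2 were in the rule, 13 were tested and 6 rose, 3 of which passed the low-count filter only through the member sums. The study chose both lists on these samples, so neither count is independent evidence.

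Of 33 cell cycle genes, 33 were tested and none was called, with a median of -0.016, although 2 were higher and 9 lower at an adjusted p under 0.05 in edgeR with smaller changes. *Mki67*, a marker of cycling cells, had a log2 fold change of 0.02. Of 18 tested genes of glycolysis, none was called, with a median of 0.062, and 6 were higher and 4 lower at that adjusted p alone. Of 19 tested p53 targets, *Btg2* rose, with a median of -0.060, and 18 were not called. Of 12 tested genes induced by cell dissociation, *Btg2* and *Junb* rose, with a median of 0.14, where 1.99% of all genes tested rose. Their part in the other calls was not tested. *Junb*, an AP-1 subunit, was at 6.89 and 7.70 CPM against 1.92 and 1.63 CPM (2.04 ± 0.20, adjusted p = 1e-05, edgeR). Mitochondrial UMIs had a median of 3.64% in WT members and 3.44% in WT cells without Hox UMIs. In the adhesion list, 16 of 16 were tested and 3 rose, *Vim*, *Cdh3* and *Twist2*, with a median of 0.36, and without WT replicate 2 *Twist2* was not called, at 1.04. *Vim*, vimentin of mesenchymal cells, was at 212 and 214 CPM against 103 and 98.1 CPM (1.09 ± 0.04), and in female cells its log2 fold change of 0.99 was just too small for a call.

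Of 14 markers of lateral and caudal mesenchyme, 14 were tested, 5 rose (*Pitx1*, *Hlx*, *Nkx2-3*, *Tbx4* and *Twist2*) and none fell, with a median of 0.88. *Nkx2-3* and *Tbx4* passed the low-count filter only through the member sums. *Hlx* and *Tbx4* were not called without either WT replicate, *Nkx2-3* without replicate 1 and *Twist2* without replicate 2. The summed level of the list was 128 and 126 CPM in members against 100 and 94.5 CPM, and the most abundant, *Osr1*, was lower in members, at 29.5 and 33.5 CPM against 43.0 and 41.3 CPM. No gene of this list was at 0 in members. *Pitx1*, a hindlimb gene, was at 15.6 and 14.2 CPM against 1.67 and 2.20 CPM (2.95 ± 0.19, adjusted p = 2.1e-07, edgeR) and its log2 fold change was 2.25 in female cells. *Foxf1*, *Hand1*, *Hand2* and *Prrx1*, which define this mesenchyme, had log2 fold changes of 0.46, 0.37, 0.73 and 0.81 in all cells but of -0.56, -0.52, -0.83 and -0.99 in female cells. Their part in the levels of *Pitx1* and of the Hox genes was not tested.

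Erythroid markers differed by replicate more than by class. Their sum was 539 and 32.1 CPM in members and 272 and 31.8 CPM in other cells, led by *Hbb-y* at 202 and 10.4 CPM against 81.8 and 11.4 CPM, and 0 of 8 tested were called. Gut markers summed to 181 and 139 CPM against 119 and 66.7 CPM, led by *Krt8*, and of 11 tested 1 rose, *Cldn7*, and 1 fell, *Foxa2*, which were not called without WT replicate 2 (1.19) and replicate 1 (-0.32). Surface ectoderm markers summed to 155 and 84.3 CPM against 89.4 and 54.0 CPM, also led by *Krt8*, and of 9 tested 2 rose, *Dlx5* and *Trp63*. *Trp63* was at 1.95 and 0.311 CPM against 0.209 and 0.217 CPM and passed the filter only through the member sums, and without WT replicate 1 neither was called, with log2 fold changes of 0.91 and 0.52. Intermediate mesoderm markers summed to 49.7 and 53.8 CPM against 70.0 and 62.6 CPM, led by *Osr1*, and *Lhx1* fell. Notochord markers summed to 18.6 and 22.9 CPM against 30.8 and 20.7 CPM, led by *Krt19*, and *Foxa2* and *Noto* fell, the latter not called without WT replicate 2 (-1.04). *Noto* passed the low-count filter only through the cells without Hox UMIs, so it had to differ. Neuroepithelium, led by *Hes5*, endothelium, led by *Egfl7*, and visceral endoderm, led by *Rbp4*, had no call among 9, 10 and 8 tested genes. Their sums were 79.3 and 75.2 CPM against 87.8 and 94.4 CPM, 40.2 and 46.2 CPM against 46.2 and 38.1 CPM, and 9.98 and 19.99 CPM against 14.7 and 12.4 CPM. No listed marker was at 0 in members, and the part of other cells in the calls was not tested. *Grhl3* gave 46 and 24 UMIs in members and 75 and 82 UMIs in the other WT cells, with an adjusted p of 0.998 in edgeR, and 1 UMI in each null sum, as the genotype labels give.

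NMP cells were compared in the same way, since they lie outside the rule for pre-somitic cells. NMPs were cells with at least 2 UMIs each of *T* and *Sox2* and at most 2 of *Tbx6*, and 189 of 690 and 201 of 701 in WT (27.4%, 24.1 to 30.9, and 28.7%, 25.3 to 32.2) had at least 2 UMIs of *Hoxc10* and *Hoxd11*. In *Grhl3*-null libraries 21 of 555 and 17 of 564 did (3.78% and 3.01%). Positive cells made up 36.2% and 36.3% of female but 12.4% and 11.5% of male WT NMPs. Median depth was 48190 and 46091 UMIs in positive WT NMPs, above the 41852 and 42319 UMIs of WT NMPs without Hox UMIs. In WT pre-somitic cells, by contrast, members were the shallower class. Compared with NMPs without Hox UMIs, 470 of 13339 genes were called (3.52%), 298 higher (2.23%) and 172 lower (1.29%). Of the genes called in pre-somitic cells, 407 were tested in NMPs, and 142 were called in the same direction there and 1 in the opposite one. Those 142 made up 33.1% of the pre-somitic and 30.2% of the NMP calls. Both comparisons draw on the same pools. *Nr6a1* fell by 1.66 in NMPs, *Cdx1* by 1.97, *Pou5f1* by 2.27 and *Prtg* by 1.03, and *Hoxa10* rose by 5.03. Of 17 tested genes of segmentation and somites, 9 fell and 1 rose.

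The interaction, the effect in pre-somitic cells minus that in NMPs, was called for 48 of 13339 genes (0.36%), 23 positive (0.172%) and 25 negative (0.187%). *Arl4d* differed by 1.15 (adjusted p = 0.00034, edgeR). It was at 11.7 and 14.4 CPM in positive NMPs against 8.25 and 9.51 CPM in NMPs without Hox UMIs, so that its increase of 1.70 in pre-somitic cells compared with 0.55 in NMPs. *Nkd2* differed by 1.46, from 1.42 in pre-somitic cells and -0.04 in NMPs, and *Ebf2* by 1.53, from 2.76 and 1.23. *Cd40*, a receptor of the TNF family, differed by 2.47, with 10.5 and 11.3 CPM against 1.53 and 1.37 CPM in pre-somitic cells and a log2 fold change of 0.44 in NMPs. *Fgf18* differed by -1.38, being lower in members and at 27.2 and 28.5 CPM against 19.3 and 20.9 CPM in NMPs. *Nr6a1*, *Hoxa10*, *Aldh1a2* and *Btg2* were not called for the interaction, at 0.18, 0.25, -0.60 and 0.86. Of the 48 genes, 47 were tested in female cells and 35 of them were called there. In cells of 25000 to 60000 UMIs, 46 were tested and 29 of them were called. The part of depth in the interaction was not tested further.

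**Figure D5:**
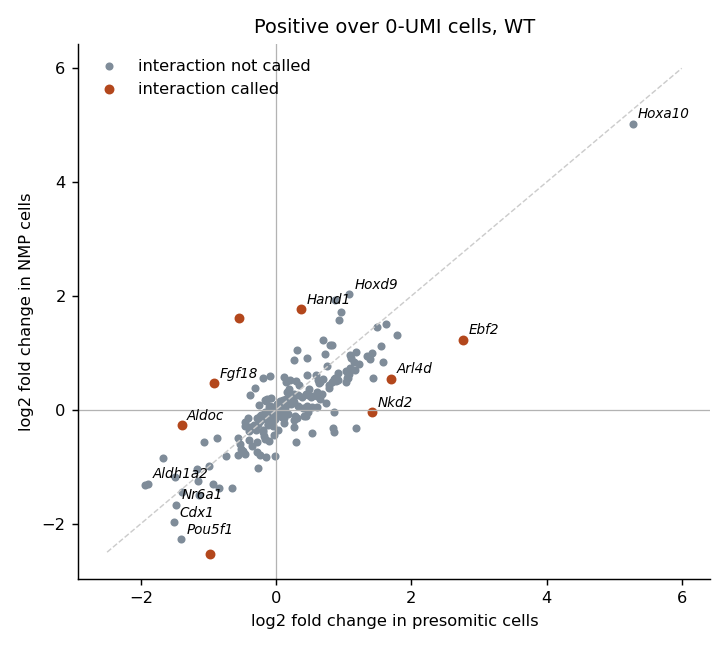
Log2 fold change of cells with posterior Hox UMIs over cells without, in WT pre-somitic cells (x axis) and in WT NMP cells (y axis), for 244 listed or leading genes with a mean of at least 10 CPM over the 4 WT pre-somitic sums. Red points mark the 8 genes called for the interaction, and *Hoxa10* and *Nr6a1* lie near the dashed line of equal change.

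Among the 603 WT members, Pearson's r per cell was 0.61 between *Hoxc10* and *Hoxa10*, 0.44 with *Hoxd10*, 0.38 with *Hoxd11*, 0.25 with *Hoxa11* and 0.12 with *Hoxc9*. It was 0.24 with *T*, 0.35 between *T* and *Fgf8* and 0.33 between the clock genes *Hes7* and *Lfng*. These are descriptions over cells that share 2 libraries, differ in depth and were chosen by *Hoxc10* and *Hoxd11*. At least 2 UMIs of *Lfng* were found in 23.3% and 30.3% of members and 15.8% and 17.8% of cells without Hox UMIs, and at least 2 of both *T* and *Lfng* in 22.3% and 30.3% against 13.9% and 16.0%. At least 2 UMIs of *Sox2* were found in 9.06% and 11.6% against 10.8% and 12.2%.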

How the data were processed

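Counts of UMIs per gene and cell were deposited by the authors for 4 libraries, made with Cell Ranger on mm10, not normalised and before their own cell filters in Seurat. Members and gene lists were chosen with earlier results of these data known. Libraries were grouped by their labels. Cells were classed as given with the results, and UMIs were summed per class and library into sums of 12330822 to 30961789 UMIs for the pre-somitic comparison. Sums of WT members and of WT and *Grhl3*-null pre-somitic cells without Hox UMIs were fitted across all genes with edgeR 4.0.16 (TMM, filterByExpr, quasi-likelihood test). NMP and interaction contrasts came from a fit to the WT sums alone, with *T* and *Sox2* also left out. DESeq2 1.42.0 was an alternative. On simulated data with 200 genes changed by a log2 fold change of 2, 200, 200 and 199 were recovered for the pre-somitic, NMP and interaction contrasts among 13612, 13145 and 13155 genes, with 1, 4 and 5 false calls. The changed genes were drawn from well-counted genes only. All genes shared a common dispersion, and pairing by library was not simulated. Recovery of low genes, to which most calls belong, was therefore not measured.

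The WT replicates were not copies, with a chi-square per degree of freedom of 2.40 between the sums of members. Both classes came from the same 2 reactions, so the library pairs them, and their deviations between replicates correlated over 7221 genes (r = 0.28). Scrublet in scanpy 1.11.5 marked at most 0.0627% of the cells of a library, so it had not worked, and doublets were kept. Named were genes of the lists, the 12 called genes with the largest increase and the 12 with the largest decrease at a mean of at least 10 CPM, and 5 in each direction for the interaction. A few items are not reported here. Blood and endothelial cells and the sterol genes were chosen after values were seen. Gene positions came from GENCODE. Python 3.11.15, numpy 2.4.6, scipy 1.17.1, pandas 2.3.3, matplotlib 3.10.9 and R 4.3.3 were used.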

Additional observations from a re-analysis of the deposited data

Results flagged for a closer look

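The following genes differed between pre-somitic cells and NMPs in the change that goes with posterior Hox UMIs, by the interaction test in edgeR, and each value is the pre-somitic minus the NMP log2 fold change. Positive differences were 4.64 for *Nepn*, 4.05 for *Spink1*, 2.47 for *Cd40*, 2.08 for *Fam131b*, 1.96 for *Scube1*, 1.70 for *Fgfbp3*, 1.57 for *Fst*, 1.53 for *Ebf2*, 1.46 for *Nkd2*, 1.40 for *Junb*, 1.15 for *Arl4d* and 1.04 for *Pax6*. For *Nepn*, *Spink1*, *Fgfbp3* and *Pax6* the levels in NMPs without Hox UMIs were the highest of the 4 classes, as for *Nepn* at 21.4 and 17.3 CPM there and 4.30 and 3.03 CPM in members. *Spink1*, a gut gene, was at 0.649 and 8.32 CPM in members and so differed between the WT replicates.

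Negative differences were -1.12 for *Aldoc*, -1.38 for *Fgf18*, -1.40 for *Hand1*, -2.01 for *Foxa2*, -2.16 for *Mpzl2*, -2.56 for *Tuba4a*, -2.78 for *Cited4*, -3.04 for *Slc39a2* and -4.66 for *Elf5*. *Elf5*, under 1 CPM in all sums, and *Slc39a2* passed the low-count filter only through the positive NMPs, so they had to differ and their values are no evidence. *Hand1*, a gene of lateral mesoderm, was at 10.1 and 14.8 CPM in positive NMPs against 3.77 and 3.52 CPM in the other NMPs. *Foxa2*, a gene of endoderm and notochord, was at 23.4 and 19.8 CPM against 12.1 and 10.6 CPM there. The part of other cells in these values was not tested.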

How the results depend on the processing

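Calls in the pre-somitic comparison numbered 429. DESeq2 called 262, all of them among the 429. Leaving out 1 library gave 262 to 399 calls, the lowest without WT replicate 2, where the lone sum of a class was assumed to vary like the others. The other alternatives gave 384 to 551. Choosing members by *Hoxd11* alone kept 212 of the 429 genes, 231 of the 470 NMP calls and 14 of the 48 interaction calls. NMP calls fell in number from 470 to 250 under DESeq2. Interaction calls were 48, but 30 under DESeq2, 112 without a low-count filter, 115 with the highest Scrublet scores removed and 80 in female cells. The cause was not tested. The share of positive pre-somitic cells was 38.5% and 38.0% in WT and 7.72% and 6.56% in *Grhl3*-null at a threshold of 1 UMI, 23.1% and 23.5% against 0.539% and 0.205% at 4 UMIs, and 26.1% in WT replicate 1 after thinning.

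With the replicate block, 481 genes were called in the pre-somitic comparison, 418 of the 429 among them, 482 in NMPs and 57 for the interaction.

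A few low or weakly changed genes changed sign. In cells of 25000 to 60000 UMIs the log2 fold changes were -0.019 for *Cdx2*, -0.025 for *Cdx4*, -0.14 for *Foxf1*, -0.44 for *Hand1* and -0.12 for *Hand2*. In female cells they were -0.56 for *Foxf1*, -0.52 for *Hand1*, -0.83 for *Hand2* and -0.99 for *Prrx1*. With members chosen by *Hoxd11* alone they were 0.44 for *Foxa2*, -2.24 for *Hbb-y*, -0.24 for *Nkx2-3* and 0.18 for *Osr1*. *Hand2* was at -0.080 with the highest Scrublet scores removed. *Hbb-y* ranged from -0.12 to 1.31 when a WT replicate was left out. Male cells alone were not fitted for pre-somitic cells, since sums of fewer than 10 cells were left out and male members numbered 9 and 9, and NMP and interaction fits without a WT replicate had no residual degrees of freedom. Calls of *Hoxd13*, *Tbx4*, *Hlx* and *Uncx* were lost without either WT replicate. Without replicate 1 those of *Tcf15*, *Efnb2*, *Meox2*, *Nkx2-3*, *Trp63*, *Dlx5*, *Tbx2*, *Foxa2* and *Hmgcs1* were lost, and without replicate 2 those of *Sp5*, *Wnt8a*, *Cer1*, *Noto*, *Rxrg*, *Twist2* and *Cldn7*. The cause was not tested.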

Other observations

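A list of 22 genes of sterol synthesis and uptake was drawn up after the values were seen, so it has no test as a list. All 22 were tested, 6 rose (*Cyp51*, *Msmo1*, *Fdps*, *Insig1*, *Hmgcs1* and *Lss*) and none fell, with a median log2 fold change of 0.77 against -0.0019 over all genes tested, and of 0.83 in female cells. *Cyp51*, a demethylase of sterol synthesis, was at 125 and 131 CPM in members against 58.9 and 57.4 CPM in other WT pre-somitic cells (1.15 ± 0.05, adjusted p = 1.9e-09, edgeR). *Hmgcs1*, which makes the precursor of mevalonate, was at 199 and 186 CPM against 91.3 and 94.9 CPM, and without WT replicate 1 its log2 fold change was 0.97. The groups of both were apart. The summed level of the list was 1682 and 1668 CPM in members, 939 and 959 CPM in other WT cells and 984 and 966 CPM in *Grhl3*-null cells. In NMPs 21 of the 22 were higher at an adjusted p under 0.05 (edgeR) and none was lower, but none reached the limit on size, with a median of 0.49.

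*Hoxc10* and *Hoxd11* were not limited to WT cells. Among cells with at least 5 UMIs of the endothelial genes *Cdh5*, *Etv2*, *Tie1* and *Tek*, a class defined after values were seen, 45 of 222 and 41 of 204 WT cells (20.3%, 95% Clopper-Pearson interval 15.2 to 26.2, and 20.1%, 14.8 to 26.3) had at least 2 UMIs of the Hox genes. In *Grhl3*-null libraries 52 of 310 and 58 of 312 did (16.8%, 12.8 to 21.4, and 18.6%, 14.4 to 23.4). The intervals of the genotypes overlapped, and depth was similar, with a median per cell of 43157.5 and 41462 for WT and of 43566.5 and 41760 for *Grhl3*-null.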
